A study of Mus musculus with 23 samples.

Results

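Rasl11a, Rasl11b, Adamts16, Cdh3, Stc1, Arhgef37 and Mob3a are 7 signalling, adhesion and secreted-factor genes that were followed through the connecting tubules and cortical collecting ducts of mice with and without the mineralocorticoid receptor gene Nr3c2. They are 7 of the 54393 genes in the deposited tables. Members were chosen by their measured counts, because those were higher in knockout than in control tubules, so the knockout-to-control differences below are a description and carry no test. All 7 passed the filter on low counts, in which 25829 genes were kept.

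All mice carried Pax8-rtTA (a tubule-specific, doxycycline-dependent activator), TRE-LC-1 (a Cre transgene under its control) and MRflox/flox. Knockout mice drank doxycycline at 2 mg/ml, in water with 5% sucrose, over 2 weeks and were then kept off the drug on a rescue diet for 2 further weeks. Controls drank the sucrose water alone. For 4 days, controls were then fed normal potassium (CT-NK, n = 5) or high potassium (CT-HK, n = 6), and knockouts normal potassium (KO-NK, n = 6) or low potassium (KO-LK, n = 6). Every knockout-to-control comparison is therefore also one of doxycycline against none, and the effects of the receptor and of the drug cannot be told apart. Age and sex are not in the labels used here, nor is the part of Nr3c2 that Cre removes. Whether each library came from a separate animal is not stated, so p-values measure the spread between libraries.

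The mineralocorticoid receptor is a steroid-activated transcription factor that, bound by aldosterone, raises sodium reabsorption and potassium secretion in these segments. Rasl11a and Rasl11b encode closely related small GTPases of the Ras superfamily, molecular switches that cycle between GTP-bound and GDP-bound states. Arhgef37 belongs to the guanine nucleotide exchange factors, which load GTP onto small GTPases, and Mob3a to the MOB adaptors, of which MOB1 is best known as a cofactor of the NDR and LATS kinases of the Hippo pathway. Stc1 encodes stanniocalcin-1, a secreted glycoprotein first described as a calcium-regulating hormone of fish. Adamts16 encodes a secreted metalloprotease and Cdh3 encodes P-cadherin, a calcium-dependent adhesion protein.

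In the GENCODE annotation of GRCm38, all are protein-coding genes. Rasl11a (ENSMUSG00000029641) lies on chromosome 5 from 146845071 to 146847726 and Rasl11b (ENSMUSG00000049907) on the same chromosome from 74195286 to 74199481. Mob3a (ENSMUSG00000003348) spans 80685253 to 80701977 of chromosome 10. The RefSeq promoter table for GRCm38.p6 held 3 of the 7 genes. The windows of Rasl11a and Rasl11b, 250 bases before to 50 after the start, are shown because the paralogs were both higher in knockout. Capitals mark the single match to a searched motif, the TEAD motif GGAATG.
Rasl11a, chr5:146844821-146845120, plus strand: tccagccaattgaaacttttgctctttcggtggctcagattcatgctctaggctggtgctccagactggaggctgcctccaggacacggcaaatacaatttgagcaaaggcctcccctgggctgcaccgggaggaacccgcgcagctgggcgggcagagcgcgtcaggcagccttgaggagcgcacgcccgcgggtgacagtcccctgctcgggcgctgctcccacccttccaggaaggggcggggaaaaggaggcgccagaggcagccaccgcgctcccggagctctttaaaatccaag
Rasl11b, chr5:74195076-74195375, plus strand: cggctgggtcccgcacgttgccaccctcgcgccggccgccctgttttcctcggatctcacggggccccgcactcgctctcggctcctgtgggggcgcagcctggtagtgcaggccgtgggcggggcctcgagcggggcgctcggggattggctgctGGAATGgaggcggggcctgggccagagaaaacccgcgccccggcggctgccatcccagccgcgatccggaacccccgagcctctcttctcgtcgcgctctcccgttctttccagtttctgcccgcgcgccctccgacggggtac
Motifs were searched on both strands. They were the steroid receptor single site TGTTCT, the palindrome AGAACA and TGTTCT with 3 bases between them, AP-1 as TGANTCA, CRE as TGACGTCA, the E-box CACGTG, TEAD as GGAATG, and TATAAA. The single site is contained in the palindrome. The Rasl11a window held none of these, and the Rasl11b window held 1, GGAATG starting 94 bases before the RefSeq start. Of 32851 promoters in the table, 14.66% held GGAATG, 18.97% the single site, 0.009132% the palindrome, 7.808% TGANTCA, 1.79% TGACGTCA, 7.15% CACGTG and 13.62% TATAAA. The Mob3a window, on the minus strand, held no match. GC content was 63.67% for Rasl11a, 73% for Rasl11b and 71.33% for Mob3a, against a median of 52.67% over all promoters.

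Adamts16 (ENSMUSG00000049538) spans 70727802 to 70841811 of chromosome 13, and Cdh3 (ENSMUSG00000061048) spans 106510891 to 106557297 of chromosome 8. Stc1 (ENSMUSG00000014813) spans 69029238 to 69041804 of chromosome 14. Arhgef37 (ENSMUSG00000045094) spans 61491657 to 61536594 of chromosome 18. The library kit does not mark strand, so reads from sequence shared with a gene on the other strand cannot be told apart. Genes on the other strand whose span, introns included, overlapped that of a member were Gm36529 and Gm36607 for Adamts16, Gm41192 for Stc1 and Gm26541 for Mob3a. Whether their exons overlap was not examined. Their mean levels over all libraries were 1.85, 0.054, 0.53 and 2.37 CPM, which are counts scaled to a common library total with TMM factors. The highest library of Gm26541 had 7.93 CPM, against 9.16 in the lowest library of Mob3a.

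Libraries held 16158408 to 34154475 estimated counts. Nr3c2, the targeted gene, averaged 108 CPM ± 33.2 (SD) in control libraries on normal and 108 ± 25.9 on high potassium. Knockout libraries averaged 58.7 ± 10.4 on normal and 54.2 ± 15.6 on low potassium, with ranges that overlapped those of controls. The mean of the knockout groups over that of the controls was a log2 fold change of -0.94 (SE 0.15, edgeR adjusted p = 0.000155), or 0.52-fold. Nr3c2 was also called lower in each pairing of a knockout with a control group. Immediate early genes moved with genotype: their 22-gene sum was 1810 to 8982 CPM in controls and 11137 to 26201 in knockouts, with 19 of 21 tested genes called higher. In controls, 1 of these 21 was higher on high than on normal potassium and 0 were called. Their median log2 fold change for that diet step was -0.72, against -0.008 over all genes. The 5 connecting tubule markers (Calb1, S100g, Trpv5, Slc8a1, Klk1) summed to 19260 to 63010 CPM in controls and 4654 to 18640 in knockouts, and 3 of the 5 were called lower. Within controls, the median of that sum was 56270 CPM on high and 29112 on normal potassium. The markers' median log2 fold change for that step was 0.79, with 0 called. Of 11 principal cell markers 2 were called higher, of 12 proximal tubule markers 3 lower, of 6 thick limb markers 1 higher, of 5 beta intercalated cell markers 1 lower and of 7 fibroblast and mural markers 1 lower, and no marker of any list was at 0 in all libraries of a group. In 8 libraries, spread over the 4 groups, olfactory and vomeronasal receptor genes summed to more than 2500 CPM before TMM scaling. The part of these shifts in the results was not tested. In bulk samples, fewer cells of a type and less RNA per cell cannot be told apart.

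Rasl11a had the largest knockout-to-control difference of the 7. Its levels in the 5 CT-NK libraries were 6.73, 11.7, 24.7, 11.8 and 11.9 CPM. The 6 CT-HK libraries had 1.46, 1.90, 1.54, 1.47, 3.00 and 7.43 CPM. In KO-NK the lowest, median and highest were 56.7, 93.2 and 140.4 CPM, and in KO-LK 51.2, 89.9 and 123 CPM. All 12 knockout libraries lay above all 11 controls, and the lowest knockout, KO-LK replicate 4, had 51.2 CPM against 24.7 in the highest control, CT-NK replicate 3. The mean of the knockout groups over that of the controls was a log2 fold change of 3.91 (SE 0.30), or 15.0-fold. It was 2.81 (SE 0.41) for KO-NK against CT-NK and 5.06 (SE 0.43) for KO-NK against CT-HK, the latter starting from a lower control level. Group means were 13.4 ± 6.72 CPM in CT-NK and 2.80 ± 2.34 in CT-HK, against 94.0 ± 32.8 in KO-NK and 90.4 ± 30.5 in KO-LK. The 2 knockout groups did not differ beyond their spread.

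Rasl11b was lower than Rasl11a in the mean of CT-NK and of both knockout groups, and higher in that of CT-HK. CT-NK libraries had 13.4, 8.92, 9.55, 7.43 and 17.5 CPM, and CT-HK libraries 5.71 to 11.3 CPM (median 7.92). KO-NK libraries ran from 20.7 to 42.3 CPM (median 30.3) and KO-LK libraries from 37.5 to 51.5 CPM (median 45.8). All knockout libraries were above all control libraries, and the log2 fold change of the means was 1.93 (SE 0.15). Ordered by mean, CT-HK was lowest at 8.52 ± 2.15 CPM, then CT-NK at 11.4 ± 4.09, KO-NK at 31.4 ± 7.24 and KO-LK at 44.5 ± 5.97. Neighbours of the same genotype overlapped.

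**Figure D1:**
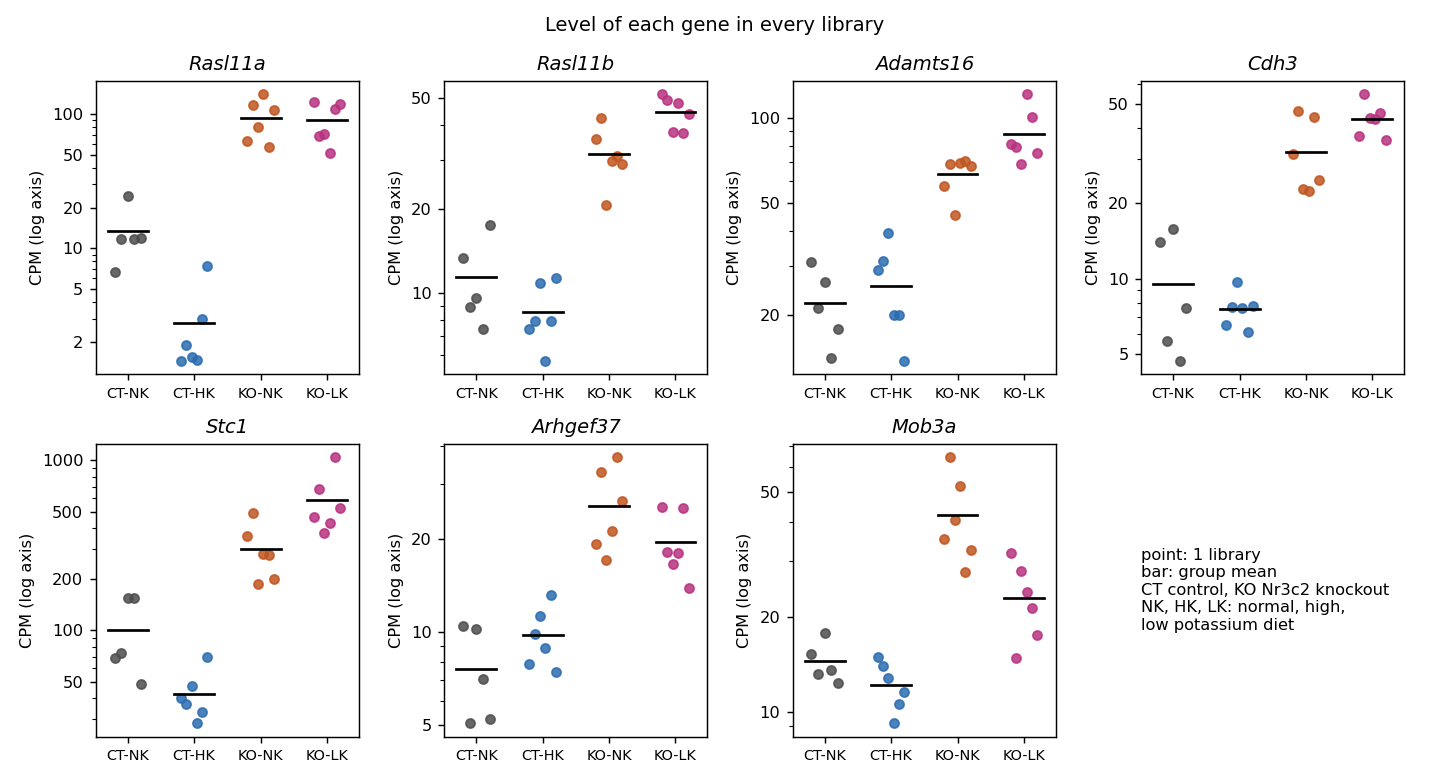
Level of each of the 7 genes in every library, in CPM on a log axis, by group (CT control, KO knockout; NK, HK and LK normal, high and low potassium). Each point is 1 library and each bar a group mean; for Rasl11a the 12 knockout libraries sit between 51.2 and 140.4 CPM and the 11 controls between 1.46 and 24.7.

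Stc1 was the most abundant in CPM. Controls on normal potassium had 69.2, 73.3, 155, 155 and 48.3 CPM, and controls on high potassium 28.4 to 69.5 CPM (median 38.6). KO-NK libraries had 187 to 487 CPM (median 280.2) and KO-LK libraries 373 to 1046 CPM (median 494). Every knockout library lay above every control, the nearest pair being 155 CPM in CT-NK replicate 3 and 187 in KO-NK replicate 3. The log2 fold change of the means was 2.68 (SE 0.24), and it was larger in KO-LK against CT-HK, 3.78 (SE 0.34), than in KO-NK against CT-NK, 1.58 (SE 0.33). The order of group means was CT-HK, CT-NK, KO-NK and KO-LK, at 42.5, 100.1, 299.5 and 586 CPM, with overlap between neighbours of the same genotype.

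Adamts16, the metalloprotease, had 30.9, 21.3, 26.2, 14.1 and 17.9 CPM in CT-NK and 13.8 to 39.1 CPM in CT-HK (median 24.5). Knockout libraries had 45.5 to 70.3 CPM on normal potassium (median 68.4) and 68.7 to 122 CPM on low potassium (median 80.0). Group ranges did not overlap between genotypes, and the log2 fold change of the means was 1.65 (SE 0.16). Cdh3, P-cadherin, had 14.0, 5.61, 15.8, 4.69 and 7.63 CPM in CT-NK and 6.12 to 9.65 CPM in CT-HK. It ran from 22.3 to 46.9 CPM in KO-NK and from 36.0 to 54.5 CPM in KO-LK, all above the highest control, and its log2 fold change was 2.13 (SE 0.19).

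Arhgef37 and Mob3a, the exchange factor and the kinase adaptor, had the smallest log2 fold changes of the 7 in the mean comparison, though not in KO-NK against CT-NK. Arhgef37 libraries had 10.5, 5.06, 10.2, 7.06 and 5.22 CPM in CT-NK, 7.44 to 13.1 CPM in CT-HK, 17.1 to 36.7 CPM in KO-NK and 13.9 to 25.4 CPM in KO-LK. The lowest knockout library, KO-LK replicate 6 at 13.9 CPM, was just above the highest control, CT-HK replicate 5 at 13.1 CPM. The log2 fold change of the means was 1.38 (SE 0.17). Mob3a was 15.2, 13.2, 17.8, 13.6 and 12.3 CPM in CT-NK and 9.16 to 14.9 CPM in CT-HK. It was 27.8 to 64.4 CPM in KO-NK but 14.8 to 31.9 CPM in KO-LK, where 10 of the 12 knockout libraries were above all controls. The overlap came from KO-LK replicates 2 and 6 at 14.8 and 17.5 CPM, below CT-NK replicate 3 at 17.8. In TPM, a length-adjusted share of transcripts, all 12 knockout libraries of Mob3a lay above all 11 controls. On that scale genes in general shifted upward in knockouts, as given below. How many of all genes separated this way was not counted. The log2 fold change of the Mob3a means was 1.23 (SE 0.15), but only 0.67 (SE 0.21) for KO-LK against CT-NK. Mob3a and Arhgef37 thus had their highest mean in KO-NK, while the mean of Rasl11b, Adamts16, Cdh3 and Stc1 was highest in KO-LK. Rasl11a had nearly equal knockout means, 94.0 CPM in KO-NK and 90.4 in KO-LK, and in TPM its mean was highest in KO-LK.

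**Figure D2:**
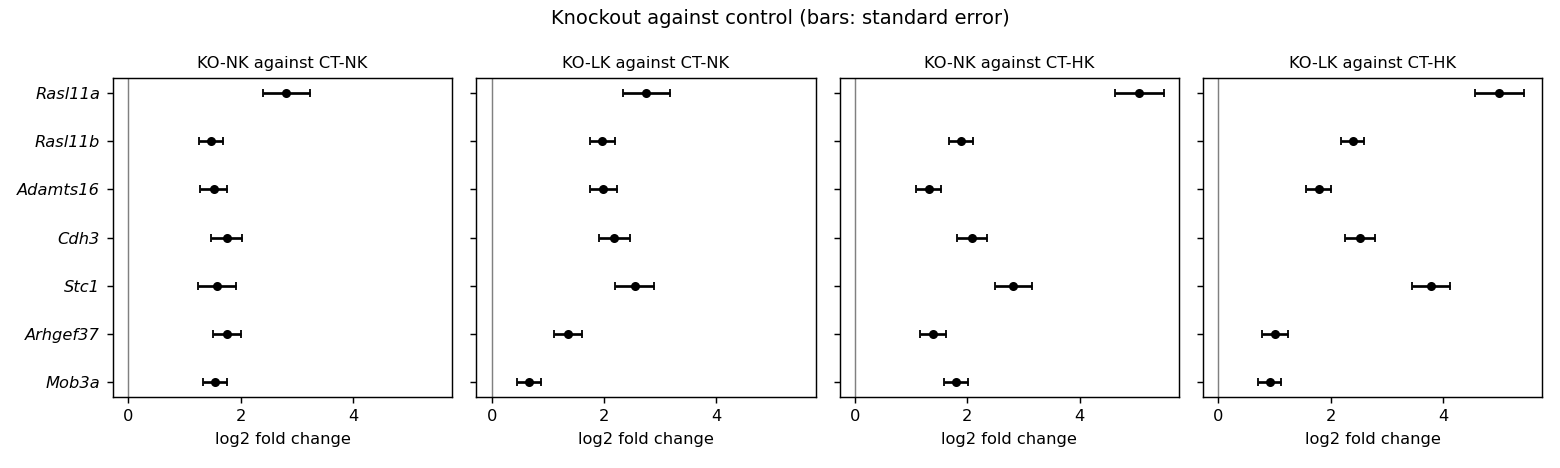
Log2 fold change of each gene in the 4 pairings of a knockout with a control group, with bars for the standard error. Rasl11a lies at 5.06 for KO-NK against CT-HK and Mob3a at 0.67 for KO-LK against CT-NK; all values are above 0 and describe the contrasts the members were chosen by.

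In the edgeR fit, 7 members were called higher in KO-NK against CT-NK (0.937% of all genes tested were called higher), 6 in KO-LK against CT-NK (0.914%), 7 in KO-NK against CT-HK (2.46%), 7 in KO-LK against CT-HK (2.2%) and 7 in the mean comparison (4.67%). Because the members were chosen for this, nothing is read from these counts. Mob3a was the member not called in KO-LK against CT-NK. Over all genes, the mean comparison called 1207 higher and 1514 lower, 44.4% higher. On log2(TPM + 0.1) with limma, 95.96% of its calls were higher and the median of all genes was 0.42, against 0.09 in the count fit. Rasl11b was 2.38 and Mob3a 1.68 on that scale, to be read against its median. Without the 8 receptor-rich libraries Rasl11a was 3.73 in the mean comparison. In KO-LK against CT-NK that fit called 4 rather than 6 members, and Rasl11a (2.39) and Arhgef37 (1.25) lost the call. In the same pairing it called 191 of 22357 genes in either direction. With an offset for transcript length, 5 members were called in KO-NK against CT-NK, where Adamts16 (1.34) and Stc1 (1.54) lost the call. Over all genes, 59 of 25829 were called there in either direction. Nothing is read from these counts of members either.

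Per unit of transcript length the order of the genes changes. In KO-LK, mean TPM was 130 for Stc1, 108 for Rasl11a, 26.6 for Rasl11b, 18.9 for Adamts16, 11.5 for Mob3a, 9.38 for Cdh3 and 3.76 for Arhgef37. Stc1 and Rasl11a were 18.7 and 12.4 TPM in CT-NK, 6.54 and 2.03 in CT-HK, and 66.9 and 104 in KO-NK. So Rasl11a exceeded Stc1 in mean TPM in KO-NK and was below it in the other 3 groups, with library ranges that overlapped in all 4 groups. The share of the log2 spread over libraries that lay between genotypes ran from 63.3% for Mob3a to 86.0% for Rasl11b. The SD within groups was 0.35 for Mob3a, 0.36 for Rasl11b and 0.67 for Rasl11a on the log2 scale.

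**Figure D3:**
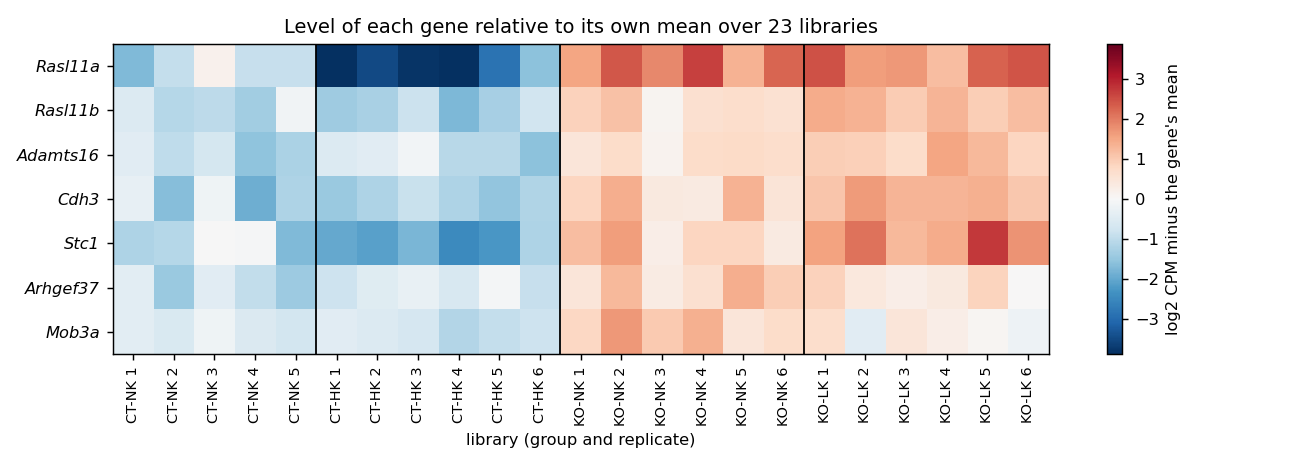
Log2 CPM of each gene minus its own mean, in each of the 23 libraries, red above and blue below the mean, with black lines between groups. Rasl11a is darkest blue in CT-HK replicates 1 to 4, and Mob3a is near its mean in several KO-LK libraries.

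Diet was compared within each genotype, a contrast that did not choose the members, although the same libraries took part in choosing them. None of the 7 was called in any of the 3 diet tests by edgeR with Benjamini-Hochberg adjustment, where 0 genes (0%) were called in each. At an unadjusted p under 0.05 there were 927 genes for CT-HK against CT-NK, 732 for KO-NK against KO-LK and 974 for the difference of those steps. Each count was below a share of 0.05 of the 25829 genes tested, the share that this threshold gives with no diet effect. DESeq2 called 20, 25 and 19 genes.

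Rasl11a was lower in controls on high than on normal potassium by a log2 fold change of -2.25 (SE 0.40, 95% interval -3.08 to -1.41, edgeR adjusted p = 0.233), and it ranked 1 of 25829 genes by p. In 5 of the 6 CT-HK libraries the level was at or below 3.00 CPM and under every CT-NK library. The groups overlapped through CT-HK replicate 6 at 7.43 CPM against 6.73 in CT-NK replicate 1. That library stood apart by proximal tubule markers, which summed to 18008 CPM there and to 182 to 534 CPM in the other 5, and its connecting tubule markers were the lowest of the controls at 19260 CPM. The part of this library's makeup in its Rasl11a level was not tested. Without it, the log2 fold change was -2.83 with an edgeR adjusted p of 0.000705. The number of genes called for the diet in controls then went from 0 to 169, of which 163 were lower on high potassium. With replicate 6 left out, CT-HK held 182 to 534 CPM of proximal tubule markers, while CT-NK held 311 to 10309 CPM (median 4256). The part of this difference in any result without replicate 6 was not tested. DESeq2 on all libraries gave -2.22 and an adjusted p of 5.188e-05, and limma on log2(TPM + 0.1) gave -2.63 and 0.0204. The other alternatives with all groups or only the groups compared did not call it. Of 11 fits that each left out 1 CT-HK or CT-NK library, 10 did not call it either, with edgeR adjusted p up to 0.9965.

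Stc1 was also lower on high potassium in controls, at -1.24 (SE 0.32, edgeR adjusted p = 0.826), and ranked 26 by p. Without CT-HK replicate 6 it was -1.43 with an edgeR adjusted p of 0.0433. Of 11 fits that each left out 1 CT-HK or CT-NK library, the other 10 did not call Stc1, and neither did any other alternative. The other 5 genes had log2 fold changes between -0.41 and 0.36 for high potassium in controls, with ranges that overlapped. Of these, Rasl11b had an interval of -0.86 to 0.03 and Arhgef37 of -0.14 to 0.86.

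**Figure D4:**
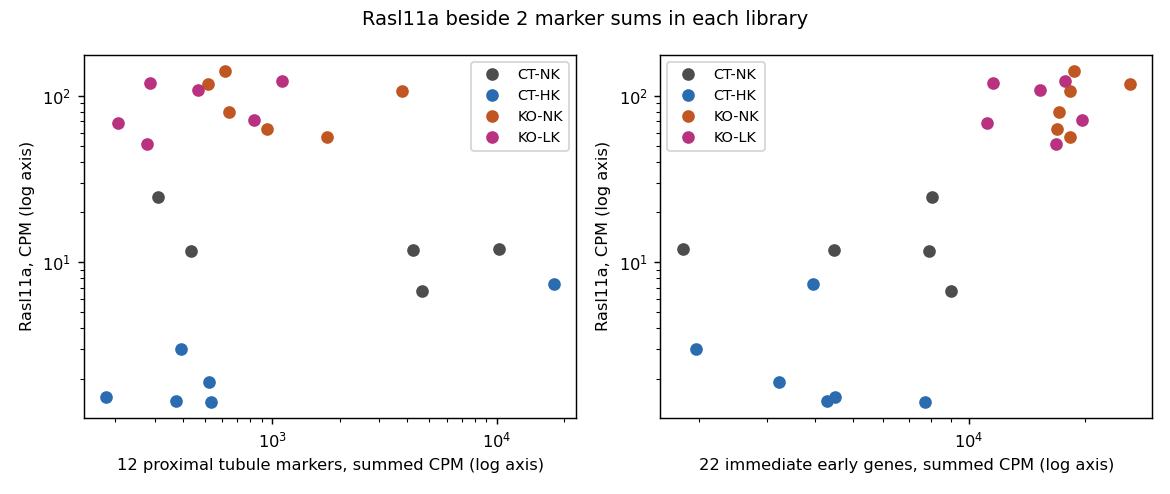
Rasl11a CPM in each library beside the summed CPM of 12 proximal tubule markers (left) and of 22 immediate early genes (right), all axes log, 1 point per library. CT-HK replicate 6, the rightmost point of the left panel at 18008 CPM, has the highest Rasl11a of the CT-HK libraries, 7.43 CPM; knockouts lie above 11137 CPM in the right panel.

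In knockouts, Mob3a was higher on normal than on low potassium by 0.88 (SE 0.20, 95% interval 0.46 to 1.30, edgeR adjusted p = 0.353), ranked 15 of 25829 by p. Libraries ran from 27.8 to 64.4 CPM on normal and from 14.8 to 31.9 CPM on low potassium, so that the ranges overlapped. DESeq2 gave 0.89 with an adjusted p of 0.0140. Stc1 was -0.97 (SE 0.31, edgeR adjusted p = 0.928), lower on normal potassium, Rasl11b was -0.50 (SE 0.20) and Adamts16 -0.47 (SE 0.22). Rasl11a was 0.06 (SE 0.36), with an interval of -0.69 to 0.81.

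The 2 diet steps differ, from normal to high potassium in controls and from low to normal in knockouts, so their difference compares unlike steps. For Rasl11a the step in knockouts minus the step in controls was 2.30 (SE 0.53, edgeR adjusted p = 0.619), rank 10 by p, and 2.89 with an adjusted p of 0.0166 without CT-HK replicate 6. That omission raised the genes called for the difference from 0 to 214. For Mob3a the difference was 1.13 (SE 0.29, edgeR adjusted p = 0.782), rank 21. Adamts16 was -0.68 (SE 0.31) and the remaining 4 genes lay between -0.10 and 0.27.

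**Figure D5:**
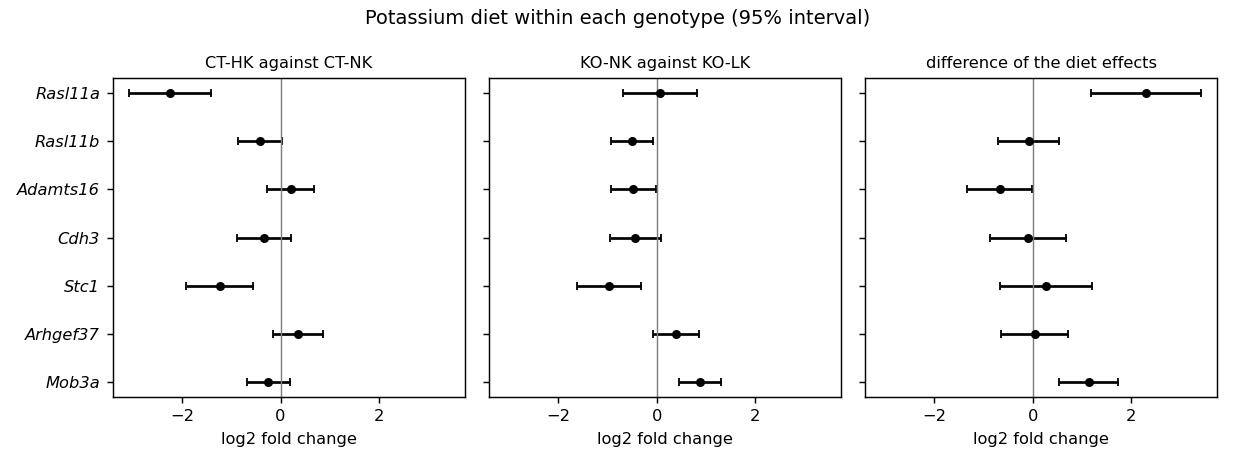
Log2 fold changes of the 7 genes for potassium diet within each genotype and for the difference between the steps, with 95% intervals. Rasl11a lies farthest from 0 in controls, at -2.25, and in the difference, at 2.30, and Stc1 at -0.97 and Mob3a at 0.88 lie on opposite sides of 0 in knockouts.

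Relatives of the members, from lists of the same families, were tested in the mean of knockouts against the mean of controls. Of 29 tested Ras family genes outside the set, 6 were called higher and 1 lower, with a median log2 fold change of -0.03 against 0.09 over all genes. Gem and Rrad, small GTPases of the RGK branch that inhibit voltage-gated calcium channels, rose by 2.64 (SE 0.30, edgeR adjusted p = 2.647e-06) and 2.18 (SE 0.29, edgeR adjusted p = 1.353e-05). Gem averaged 16.8 ± 12.8 CPM in controls on normal potassium and 106 ± 19.4 in knockouts on normal potassium. Rem2, of the same branch, rose by 1.24 (edgeR adjusted p = 0.00548), with group means of 0.49 to 1.58 CPM. Rasd2 fell by 1.16 (SE 0.20, edgeR adjusted p = 0.000365). Its control means were 57.6 and 84.9 CPM on normal and high potassium, and its knockout means 37.0 and 26.3 CPM on normal and low potassium. Rras2 rose by 0.48 (edgeR adjusted p = 0.00674), and was not called with no filter (0.43) or with the length offset (0.44). Rasl10a rose by 1.88 (edgeR adjusted p = 0.00816), with group means of 0.27 to 1.18 CPM. Without the 8 libraries rich in chemosensory receptor counts it was 1.51 and not called.

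Of 18 ADAMTS proteases beside Adamts16, 1 was called: Adamts1, a protease that cleaves proteoglycans, rose by 1.40 (SE 0.30, edgeR adjusted p = 0.00310), and the list's median was 0.26. Adamts18, the closest paralog, was 0.27 (edgeR adjusted p = 0.916) at about 1 CPM. Of 14 cadherins and catenins beside Cdh3 edgeR called 0, with 5 at an unadjusted p under 0.05, while DESeq2 called 1. On either TPM scale limma called 7. Over all genes it called 8161 on log2(TPM + 1) and 8266 on log2(TPM + 0.1), of 25829, and these were mostly higher. Their median was 0.27, and Cdh1 (E-cadherin) was 0.39 (SE 0.17, edgeR adjusted p = 0.175). Cdh1 was called with the stricter filter, at 0.43 with an edgeR adjusted p of 0.00756, on both TPM scales, and without any one of CT-NK replicate 1, KO-NK replicates 3 and 6 and KO-LK replicate 6 (0.46 to 0.52).

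Of 7 genes of the stanniocalcin and pappalysin list beside Stc1, Pappa, a protease that stanniocalcins inhibit, rose by 0.75 (SE 0.15, edgeR adjusted p = 0.00108). Igfbp5, a binding protein of insulin-like growth factors that pappalysins cleave, fell by 0.76 (SE 0.14, edgeR adjusted p = 0.000610). Pappa was 0.70 and not called with the length offset, and Igfbp5 was -0.30 and -0.33 and not called on log2(TPM + 1) and log2(TPM + 0.1). The Igfbp5 value on log2(TPM + 0.1) is to be read against the higher median of all genes on that scale. Stc2 was under 1 CPM in every group and its log2 fold change was 0.19 (SE 0.51). Of 14 MOB and Hippo pathway genes beside Mob3a edgeR called 0, with 1 at an unadjusted p under 0.05 and a median of 0.09, equal to that of all genes. DESeq2 called 1, and limma called 13 on either TPM scale, where calls were mostly higher over all genes. The paralogs Mob3b and Mob3c were 0.06 (SE 0.12) and 0.16 (SE 0.11), at 29.6 to 32.2 and 13.2 to 17.4 CPM.

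Genes whose pattern over the 23 libraries came nearest were found by the root mean square difference of centred log2 CPM, among 10578 candidates. For Rasl11a these were Atp12a (0.92), a proton-potassium pump subunit, Myc (0.96) and Arntl (1.07), against a median of 2.35 over all candidates. Myc is also in the immediate early list. For Rasl11b they were Prr5l (0.47), Fzd1 (0.50) and Gpc3 (0.50), and for Cdh3 Gpc3 (0.42), Anxa9 (0.49) and Ache (0.50). Adamts16 came nearest to Ache (0.33), Ntn4 (0.34) and Scube3 (0.39). Stc1 was nearest to Anxa9 (0.65), Egln3 (0.68) and Arntl (0.80). Arhgef37 was nearest to Scin (0.30), Nedd4l (0.33) and Nedd9 (0.35), and Mob3a to Rassf1 (0.25), Pard6b (0.28) and Phf13 (0.32). Among the members themselves, Rasl11b and Cdh3 were the nearest pair at 0.42 and Rasl11a and Arhgef37 the farthest at 1.83. All of these distances share the libraries and the knockout-to-control step by which the members were chosen. Genes were centred but not scaled, so the distances also depend on how widely each gene varied. The SD of log2 CPM over libraries was 2.3 for Rasl11a and 0.79 for Arhgef37.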

How the data were processed

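RNA from dissected connecting tubules and cortical collecting ducts was turned into libraries with SMART-Seq HT and Nextera XT, per the labels' protocols. The authors quantified reads with Salmon (listed as 0.14.10) on GRCm38.p6, per the submitters' processing notes. They deposited estimated counts, which are expected counts (35.9% of values are not whole), and TPM, normalised by length and summing to the same total per library. Depth was 16158408 to 34154475 counts, and precision is limited by the 5 or 6 libraries a group. All 54393 gene IDs matched GENCODE symbols.

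Expected counts were rounded and fitted with edgeR 4.0.16 (R 4.3.3): TMM, its low-count filter and 1 mean per group over 23 libraries, leaving 25829 genes and 19 residual degrees of freedom. Quasi-likelihood p-values were adjusted by Benjamini-Hochberg over all genes (threshold 0.05). Alternatives were DESeq2 1.42.0, its size factors, filters (none, or 5 CPM in 5 libraries), limma 3.58.1 on log2(TPM + 1) and log2(TPM + 0.1), a length offset, a replicate block, segment covariates, only the groups compared, without libraries above 2500 CPM on chemosensory receptor genes, and without each library.

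Named genes were the members, Nr3c2, up to 5 called relatives per list by p with the closest relatives, and the 3 nearest patterns with at least 5 CPM. The members and lists were chosen with earlier results of these data known. The list of relatives of Arhgef37 is not reported here.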

Additional observations from a re-analysis of the deposited data

Results flagged for a closer look

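Of 28 sets of 4 or more libraries (7 genes in 4 groups), 2 held a library standing apart from the rest of its group, where chance gives about 1 in 20 for normally distributed values. The rule was applied to CPM without a log, and whether that rate holds there was not tested. Both concern Rasl11a. In CT-NK, replicate 3 was at 24.7 CPM, with the next library at 11.9 and the lowest at 6.73, a gap of 0.711 of the whole range. In CT-HK, replicate 6 was at 7.43 CPM, with the next library at 3.00 and the lowest at 1.46, a gap of 0.742 of the range. The latter library also had 18008 CPM of proximal tubule markers, and the former 311 CPM, the lowest of the CT-NK libraries.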

How the results depend on the processing

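No knockout-to-control log2 fold change of a member changed sign under any alternative. In limma on log2(TPM + 0.1) the mean comparison moved to 2.38 for Rasl11b and 1.68 for Mob3a. Called diet results appeared for Rasl11a in controls with DESeq2 (-2.22) and limma on log2(TPM + 0.1) (-2.63), for Mob3a in knockouts with DESeq2 (0.89) and for the Rasl11a diet difference with DESeq2 (2.29). Leaving out a library gave -2.83 to -1.90 for Rasl11a and -1.43 to -1.02 for Stc1 in controls, and 1.95 to 2.89 for the Rasl11a diet difference. Signs turned for values within 0.27 of 0. Covariates for neighbouring segments gave -0.0497 for Adamts16 in controls, -0.0539 for Rasl11a in knockouts and 0.0341 for the Cdh3 difference, and log2(TPM + 1) and log2(TPM + 0.1) gave -0.0106 and -0.0102 for Rasl11a in knockouts. The Rasl11b difference was 0.0170 with the stricter filter, 0.0346 on log2(TPM + 0.1) and 0.14 without the receptor-rich libraries, where Cdh3 was 0.25, Stc1 -0.21 and the relative Adamts18 -0.21. A length offset gave -0.0175 for the Arhgef37 difference and -0.0772 for the relative Mob3b. Leaving out single libraries gave, for the difference, -0.12 to 0.15 (Arhgef37), -0.37 to 0.0691 (Cdh3) and -0.31 to 0.0505 (Rasl11b), and -0.20 to 0.15 for Rasl11a in knockouts, -0.0170 to 0.13 for Mob3b and -0.0536 to 0.37 for Stc2. The causes were not tested.

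Members called in KO-LK against CT-NK were 6 in the main analysis, 4 without the receptor-rich libraries, 5 with the length offset or segment covariates, and 7 with DESeq2, the stricter filter, both TPM scales and without KO-LK replicate 2, KO-NK replicate 2 or KO-NK replicate 3. In the same order, genes called in either direction were 528 of 25829, 191 of 22357, and 75 and 139 of 25829. DESeq2 called 1372 of 25829, the stricter filter 2392 of 12421, and the TPM scales 4361 and 4345 of 25829. Without those single libraries 736, 781 and 1503 genes were called. Apart from leaving out single libraries, genes called ran from 59 (length offset) to 3068 (log2(TPM + 0.1)) in KO-NK against CT-NK (439 in the main analysis), 75 to 4361 in KO-LK against CT-NK (528), 347 to 5643 in KO-NK against CT-HK (1494), 382 to 6951 in KO-LK against CT-HK (1418) and 976 to 8266 in the mean comparison (2721). The 3 diet tests, with 0 called, had at most 20, 25 and 19, with DESeq2. Without any single library of the 23, KO-NK against CT-NK had 233 (CT-NK replicate 5) to 919 (KO-NK replicate 3), KO-LK against CT-NK 296 (CT-NK replicate 5) to 1503 (KO-NK replicate 3; 960 without CT-HK replicate 6), KO-LK against CT-HK up to 2432 (KO-NK replicate 3), and the diet in controls and its difference 0 to 169 and 0 to 214 (CT-HK replicate 6). Replicate numbers did not pair libraries (33 same-number pairs, median r 0.018, from -0.44 to 0.49, and 3 of 23 libraries closest to their own number). With the number as a replicate block, KO-NK against CT-NK called 7 members, and 394 of 25829 genes in either direction. As the members were chosen for rising in knockout, nothing is read from the counts of members called. The Rasl11a change in controls was then -2.55 (edgeR adjusted p = 0.1095), and no diet call of a member changed.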
